A study of Mus musculus with 6 samples.

Results

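The genes described here encode proteins of the mitochondrial ribosome, taken as all genes on the array whose symbol starts with Mrpl (large subunit) or Mrps (small subunit) followed by a digit. There were 76 of them among 19505 genes, 48 of the large and 28 of the small subunit, each measured by 1 probe set. RNA came from RAW264.7 cells, a mouse macrophage line, grown for 3 days on pristine polyetheretherketone (PEEK), an implant polymer that served as the control, or on modified PEEK. The labels do not say how the polymer was modified. Each surface had 3 arrays of bulk RNA, all from the same cell line. The labels do not tie the 3 samples of a surface to separate cultures, so the p-values cover the spread among these arrays, which may be technical only. Values are log2 signals, on which a difference of 1 is a doubling, and differences are modified minus pristine PEEK.

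The mitochondrial ribosome translates the few proteins encoded by mitochondrial DNA, which are core subunits of the respiratory chain and of ATP synthase. Its own proteins are encoded in the nucleus, made in the cytosol and imported, and they assemble on ribosomal RNA transcribed from the mitochondrial genome. Some descend from bacterial ribosomal proteins, and others were added during mitochondrial evolution. Macrophages shift between respiration and glycolysis as they are activated.

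The promoters of the 4 members with the largest differences are shown first, because expression of these genes is commonly described through the nuclear factors NRF1, GABP (of the ETS family) and YY1. RefSeq sequences (GRCm38.p6) were found for 67 of 76 members. The 250 bases before the annotated start are given 5′ to 3′ on the gene's strand in lower case, and capitals mark the letters of a motif searched.
Mrpl18 (chr17:12916092-12916341, minus strand): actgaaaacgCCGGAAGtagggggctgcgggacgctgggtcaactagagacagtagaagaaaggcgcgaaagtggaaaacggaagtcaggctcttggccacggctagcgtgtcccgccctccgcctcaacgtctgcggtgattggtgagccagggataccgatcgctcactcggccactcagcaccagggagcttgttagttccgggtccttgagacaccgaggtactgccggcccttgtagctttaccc
Mrpl24 (chr3:87919294-87919543, plus strand): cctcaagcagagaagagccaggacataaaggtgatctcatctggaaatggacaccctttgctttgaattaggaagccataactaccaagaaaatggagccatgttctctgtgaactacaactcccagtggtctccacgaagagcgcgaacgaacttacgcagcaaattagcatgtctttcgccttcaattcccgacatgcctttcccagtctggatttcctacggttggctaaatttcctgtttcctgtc
Mrpl41 (chr2:24975099-24975348, minus strand): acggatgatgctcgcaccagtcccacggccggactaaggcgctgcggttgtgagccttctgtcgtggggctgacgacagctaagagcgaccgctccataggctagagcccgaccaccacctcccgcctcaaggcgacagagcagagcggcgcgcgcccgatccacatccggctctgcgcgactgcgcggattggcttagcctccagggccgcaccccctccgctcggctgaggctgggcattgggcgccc
Mrps18a (chr17:46110754-46111003, plus strand): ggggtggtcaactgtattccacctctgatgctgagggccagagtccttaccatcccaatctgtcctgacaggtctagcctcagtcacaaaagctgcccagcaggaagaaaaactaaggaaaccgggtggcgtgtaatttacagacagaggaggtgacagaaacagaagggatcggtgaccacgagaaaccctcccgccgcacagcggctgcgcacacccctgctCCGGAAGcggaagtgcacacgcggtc
Mrpl18 has the ETS letters CCGGAAG from 240 bases before its start, and Mrps18a has them from 26 bases before. Mrps18a also has the YY1 letters AAGATGGC from base 12 after the start, beyond the stretch shown. None of the 3 motifs was found in the windows of Mrpl24 and Mrpl41.

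Within windows of 300 bases (250 before to 50 after the start, both strands), the ETS letters occurred in 25 of 67 members (37.3%), against 13.2% of 15691 measured genes and 9.93% of all 27025 genes with a promoter sequence. The NRF1 letters, GCGCA and GCGC with any 1 base between them, occurred in 13 members (19.4%), against 7.63% and 5.19%. The YY1 letters occurred in 12 members (17.9%), against 3.64% and 3.19%. These matches describe letters only: 42 members held at least 1 of the motifs and 25 held none. The median difference between the surfaces was 0.012 in members with the ETS letters and 0.033 in those without. For NRF1 the medians were 0.033 and 0.028, and for YY1 -0.040 and 0.029.

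Across the arrays, the median gene signal ran from 4.98 to 5.10. The macrophage markers measured (7) had means from 8.22 to 12.03. The 3 T cell markers lay below 3.72, a background level set at the 95th percentile of 1410 odorant and pheromone receptor genes. So did 2 of 4 fibroblast, 1 of 4 epithelial and 1 of 2 B cell markers on both surfaces. Among those that did not were the fibroblast marker Col1a1 (5.80 on pristine PEEK) and the epithelial marker Krt8 (4.39). Of 10 proliferation genes, 8 were higher on modified PEEK by limma (80%, against 5.24% of all genes) and 0 lower. Ccna2, Top2a, Mki67 and Cdk1 rose by 1.33, 1.29, 1.16 and 1.12 (limma adjusted p up to 0.000515 among these 4). The part of proliferation in the results on the mitochondrial ribosome was not tested. In bulk RNA, fewer cells of a kind and less RNA per cell cannot be told apart.

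The mitochondrial ribosome as a whole was measured at nearly the same level on both surfaces. The median difference over its 76 genes was 0.029, beside 0.0088 over all genes, and single genes ran from -0.45 to 0.53. By limma with Benjamini-Hochberg adjustment over all genes, 2 members were higher (Mrpl18 and Mrpl41; 5.24% of all genes were higher) and 1 was lower (Mrpl24; 5.15% of all genes). These 3 are 3.95% of the members, against 10.4% of all genes and 19.2% of the 8615 genes at least as bright as the dimmest member. Scaling the arrays to their poly-A spike-in controls moved the median of all genes to 0.26 and that of the members to 0.28, with 7 members then higher (9.21%, against 8.07% of all genes) and 0 lower (against 1.49%). All 76 genes were tested without a filter, and their mean signals of 5.65 or more lay above the background.

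Under the deposited scaling, and for the spread among these arrays only, the intervals of most members bounded a change. Scaling to the spikes moved the median of the members to 0.28, and intervals were not counted under it. The 95% interval of the difference lay inside a 1.5-fold change for 68 of 76 members and inside a 2-fold change for 76 of 76. The intervals that reached 1.5-fold were those of Mrpl18, Mrpl41, Mrpl12, Mrpl24, Mrps35, Mrps26, Mrps18b and Mrps18a. The measured difference was under 1.2-fold for 62 of 76 members and at most 1.44-fold. The median absolute log2 difference was 0.128 over the members and 0.145 over all genes. The lower and upper quartiles of the difference were -0.125 and 0.132 over the members. Over the 8615 genes at least as bright as the dimmest member they were wider, at -0.188 and 0.172. When the variance was allowed to follow the signal intensity, 9 members were higher and 6 lower (19.7% of the members), and 3305 genes (16.9%) passed in all instead of 2027. The share among genes at least as bright as the dimmest member, 19.2% without this trend, was not counted with it. Leaving out 1 array gave 0 to 1 members higher and 0 to 2 lower. None passed in either direction without pristine PEEK replicate 2 or 3, and the genes passing in all fell to 1241, 1239 and 1142 without pristine replicates 1, 2 and 3 and to 1300 without modified replicate 3.

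**Figure D1:**
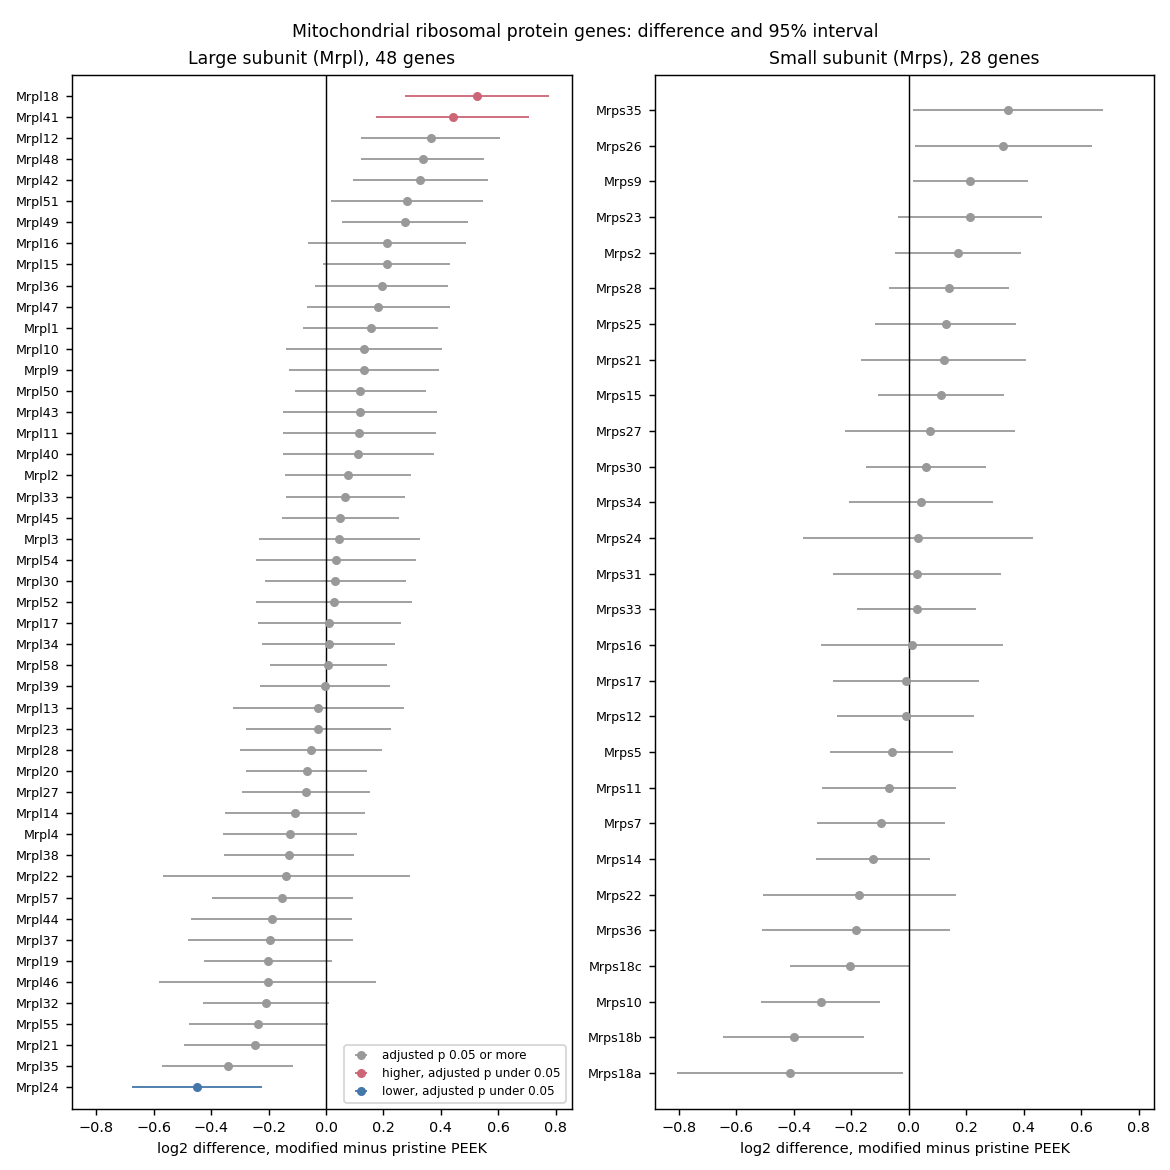
Log2 difference between modified and pristine PEEK for each of the 48 large-subunit and 28 small-subunit genes, as a point with its 95% interval from limma over 6 arrays. Coloured points passed an adjusted p of 0.05 (Mrpl18 and Mrpl41 higher, Mrpl24 lower), and the other members lie on both sides of 0.

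Mrpl18, a large-subunit homologue of a bacterial ribosomal protein, showed the largest difference of the family. Its signal, over replicates 1, 2 and 3 of each surface, was 7.71, 7.68 and 7.47 on pristine and 8.26, 8.13 and 8.05 on modified PEEK. The surfaces did not overlap, and the rise was 0.53 ± 0.11 (SE; limma adjusted p = 0.0187), or 1.44-fold. The call was lost without pristine replicate 2 (adjusted p = 0.0528) or 3 (0.0827) or modified replicate 1 (0.0505). Mrpl41, a large-subunit protein with no bacterial counterpart, read 5.82, 6.16 and 6.11 on pristine and 6.54, 6.46 and 6.42 on modified PEEK. Every modified array lay above every pristine array, and pristine replicate 1 was the lowest. The rise of 0.44 ± 0.12 (SE; limma adjusted p = 0.0484) was lost in each of the 6 fits without 1 array, with adjusted p from 0.0708 to 0.141.

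Mrpl24, the homologue of a bacterial protein near the exit of the peptide tunnel, was the member that fell. It read 9.05, 9.19 and 9.24 on pristine and 8.77, 8.62 and 8.74 on modified PEEK, again without overlap. The difference was -0.45 ± 0.10 (SE; limma adjusted p = 0.0236). The call was lost without pristine replicate 2 (adjusted p = 0.0949) or 3 (0.108) or modified replicate 2 (0.0646) or 3 (0.0672). Scaled to the spikes it differed by -0.20 (limma adjusted p = 0.364). Its distance of -0.46 from the median of all genes cannot change with that scaling, which shifts all genes of an array alike.

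Other large-subunit genes came near the threshold without passing it. Mrpl12 forms the flexible stalk that engages translation factors, and it read 7.99, 8.30 and 8.15 on pristine and 8.52, 8.51 and 8.51 on modified PEEK, a difference of 0.36 ± 0.10 (SE; limma adjusted p = 0.0685). Mrpl10, which anchors Mrpl12 in the stalk, read 6.77, 6.98 and 7.08 on pristine and 7.21, 7.06 and 6.96 on modified PEEK, and the surfaces overlapped (difference 0.13, 95% interval -0.14 to 0.40; 0.045 without pristine replicate 1 and 0.066 without modified replicate 1). Mrpl48, without a bacterial counterpart, had means of 8.58 ± 0.081 on pristine PEEK and 8.91 ± 0.053 on modified PEEK (SD, n = 3 each), with no overlap (limma adjusted p = 0.0589). Mrpl42, named after its value was seen, differed by 0.33 without overlap (limma adjusted p = 0.0894). Mrpl35, a homologue of a bacterial protein, differed in the other direction. Its means were 8.72 ± 0.028 on pristine PEEK and 8.38 ± 0.13 on modified PEEK (SD, n = 3 each), also without overlap (limma adjusted p = 0.0705). Mrpl35 passed in 8 of 18 alternative fits by limma or an ordinary t statistic, with adjusted p up to 0.669. The next lowest differences were those of Mrpl21 (-0.25, adjusted p = 0.222 by limma) and Mrpl55 (-0.24, adjusted p = 0.233), and the sign of both turned when the arrays were scaled to the spikes.

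Neither Mrpl58 nor Mrpl44 passed. Mrpl58, a peptidyl-tRNA hydrolase that became part of the ribosome, had means of 8.37 ± 0.039 on pristine PEEK and 8.38 ± 0.054 on modified PEEK (SD, n = 3 each), and the 95% interval of its difference was -0.19 to 0.21. Mrpl44, which has a ribonuclease III-like fold, read 7.52, 7.51 and 7.49 on pristine and 7.56, 7.23 and 7.15 on modified PEEK. Its pristine arrays were close together, and modified replicate 1 stood above both other modified arrays (difference -0.19, limma adjusted p = 0.434; 0.059 when scaled to the spikes). The difference was -0.31 without that array and -0.11 without modified replicate 3.

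No small-subunit gene passed by limma, with 6 of 28 at an unadjusted p under 0.05 (21.4%, against 22.7% of all genes). Among the 8615 genes at least as bright as the dimmest member, 3205 were under it, a larger share. An ordinary t statistic per gene, also adjusted, called 1 small-subunit gene higher and 1 lower. The paralogs Mrps18a, Mrps18b and Mrps18c all had modified arrays below the pristine arrays. Mrps18b read 8.71, 8.74 and 8.68 on pristine and 8.40, 8.12 and 8.40 on modified PEEK, a difference of -0.40 ± 0.11 (SE; limma adjusted p = 0.0509). Mrps18a read 7.45, 7.57 and 7.81 on pristine and 7.34, 6.83 and 7.41 on modified PEEK, a difference of -0.41 ± 0.17 (SE; limma adjusted p = 0.199). Modified replicate 2 was the lowest array for both, and the difference of Mrps18a was -0.23 without it. Mrps18c read 6.34, 6.34 and 6.21 on pristine and 6.14, 6.10 and 6.04 on modified PEEK (difference -0.20, limma adjusted p = 0.233; 0.043 when scaled to the spikes). With the intensity trend, Mrps18b (limma adjusted p = 0.000773) and Mrps18a (0.0278) passed. Over 18 alternative fits, by limma or an ordinary t statistic, Mrps18b passed in 7 and Mrps18a in 2. Their adjusted p went up to 0.496 and 0.486, and neither passed in any of the 6 fits without 1 array.

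The other small-subunit genes with larger differences lay in both directions. Mrps10, a homologue of a bacterial protein, had means of 8.32 ± 0.033 on pristine PEEK and 8.01 ± 0.073 on modified PEEK (SD, n = 3 each), without overlap (limma adjusted p = 0.0740). It passed in 8 of 18 alternative fits by limma or an ordinary t statistic, with adjusted p up to 0.804. Mrps35 and Mrps26, which have no bacterial counterpart, differed by 0.34 (limma adjusted p = 0.201) and 0.33 (0.191). Both had every modified array above every pristine array and were highest on modified replicate 1, at 6.50 and 8.57. Without that array their differences were 0.20 and 0.21. Mrps23 (0.21, adjusted p = 0.307) and Mrps9, a homologue of a bacterial protein (0.21, adjusted p = 0.189), did not overlap either, and without pristine replicate 1 the difference of Mrps23 was 0.12. Mrps36, now regarded as part of the oxoglutarate dehydrogenase complex, had means of 7.27 ± 0.098 on pristine PEEK and 7.09 ± 0.27 on modified PEEK (SD, n = 3 each), with overlap (limma adjusted p = 0.522; the difference of -0.18 became 0.063 when scaled to the spikes and -0.031 without modified replicate 2).

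**Figure D2:**
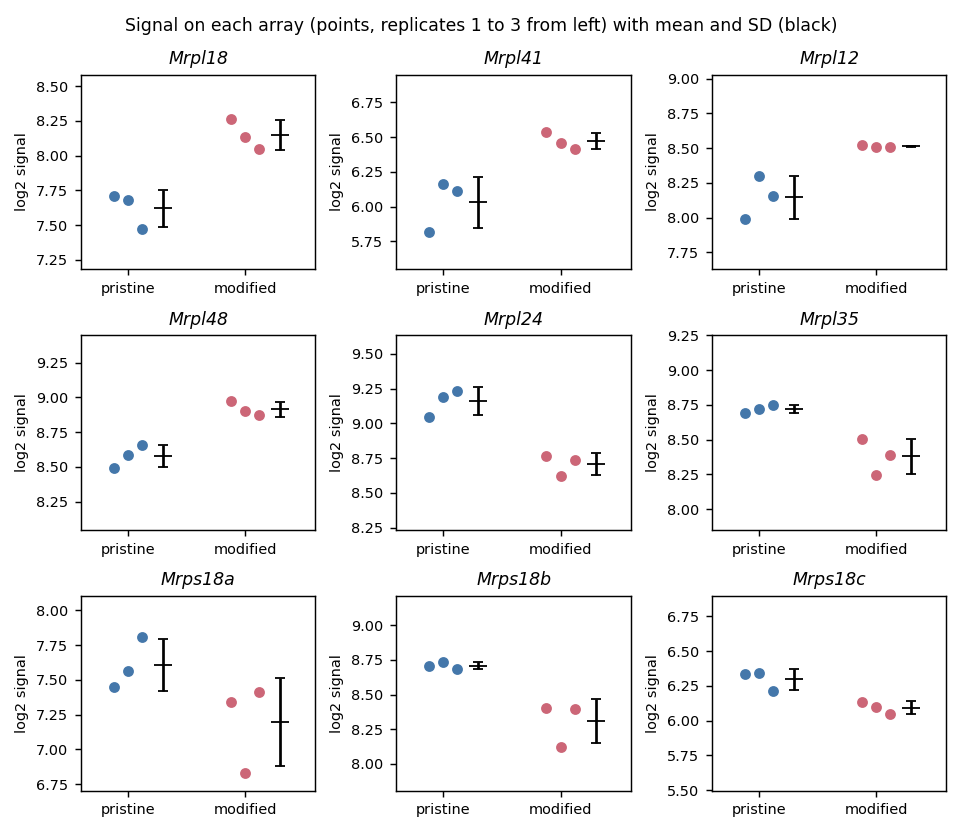
Log2 signal of 9 members on each array (points; pristine PEEK blue, modified PEEK red), with the mean and SD (n = 3) in black. The surfaces do not overlap in any panel, and modified PEEK is most spread for Mrps18a (SD 0.32).

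Counted over the family, 26 of 76 members had no overlap between the surfaces (34.2%, against 28.8% of all genes). Of these, 15 had the modified arrays above (19.7%, against 14.3%) and 11 below (14.5%, against 14.5%). Among the 8615 genes at least as bright as the dimmest member, 2051 had them above and 2111 below. In that set 4453 overlapped, a smaller share than among the members. The large subunit gave 9 above and 5 below, and the small subunit 6 and 6. Modified replicate 1 gave the highest signal for 37 of 76 members (48.7%), against 21.1% of all genes. Pristine replicate 1 gave the lowest for 30 (39.5%), against 15.7%. The mean over the 76 members was 7.53, 7.64 and 7.61 on pristine and 7.70, 7.55 and 7.59 on modified PEEK, so the surfaces overlapped.

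The large and small subunits had nearly the same median difference, 0.030 over 48 genes and 0.029 over 28. The mean signal of the large minus that of the small subunit, set to 0 at the pristine mean, was -0.021, 0.0022 and 0.019 on pristine and 0.034, 0.038 and 0.017 on modified PEEK. The difference of 0.030 stood beside SDs of 0.020 and 0.011, and the surfaces overlapped. In structures of the mammalian mitochondrial ribosome, Mrps30 and Mrps18a lie in the large subunit. With both moved there and Mrps36 left out, giving 50 and 25 genes, the difference was 0.00028.

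**Figure D3:**
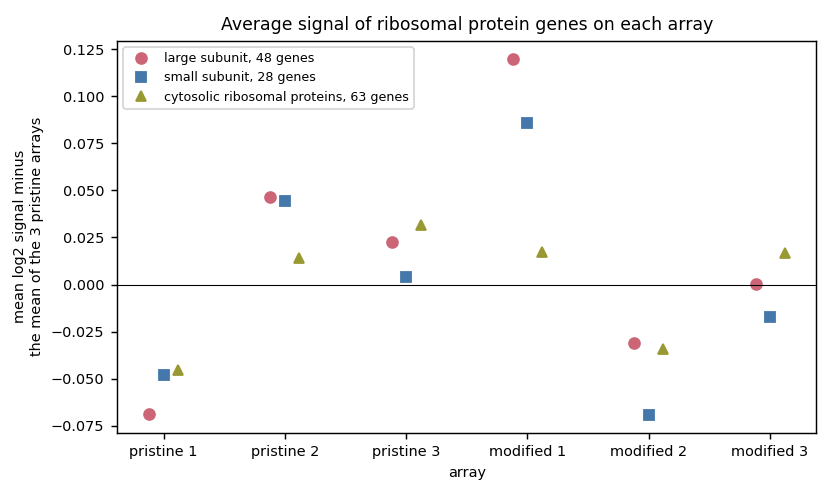
Mean log2 signal of the large-subunit genes (circles), small-subunit genes (squares) and cytosolic ribosomal protein genes (triangles) on each of the 6 arrays, minus the mean of the 3 pristine arrays. Both mitochondrial subunits are highest on modified replicate 1, and no group separates the surfaces.

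By origin, the 30 large-subunit genes with bacterial homologues gave 1 higher and 1 lower, with a median difference of 0.010. Each is 3.33%, against 5.24% and 5.15% of all genes. The 18 large-subunit genes specific to mitochondria gave 1 higher (5.56%) and 0 lower, with a median of 0.042. Among small-subunit genes, the 15 counted with bacterial homologues had a median of -0.0100 and the 12 counted as specific to mitochondria 0.051. The 12 include Mrps18a and Mrps18b, although their paralog Mrps18c was counted among the 15. Counted in the same order, modified arrays lay above the pristine ones for 4, 5, 3 and 3 genes and below for 5, 0, 4 and 2, beside 14.3% and 14.5% of all genes. The last 2 were Mrps18a and Mrps18b. Among the 8615 genes at least as bright as the dimmest member, the counts were 2051 above and 2111 below.

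Many members also share a start region with a gene transcribed the other way. A divergent start within 500 bases was found for 23 of 67 members (34.3%), against 12.3% of measured genes with a promoter sequence. In 20 such pairs both genes were measured, and the partner was higher in 2 and lower in 0 by limma. Of all genes, 5.24% were higher and 5.15% lower. Eme1, a DNA repair nuclease subunit whose start lies 48 bases from that of Mrpl27, rose from 5.44 ± 0.16 to 6.33 ± 0.25 (SD, n = 3 each; limma adjusted p = 0.00716), and Mrpl27 differed by -0.068 (0.756). Ska3, a kinetochore gene 76 bases from Mrpl57, rose from 6.17 ± 0.23 to 7.15 ± 0.28 (SD, n = 3 each; limma adjusted p = 0.00889), and Mrpl57 differed by -0.15 (0.472). The partner of Mrpl18 is Tcp1, a subunit of the cytosolic chaperonin, which differed by 0.17 (limma adjusted p = 0.305). Whether partners differ from each other was not tested.

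Mitochondrial ribosomal proteins with other symbols gave 0 of 4 passing by limma (1 at an unadjusted p under 0.05; 0 by an ordinary t statistic). Ptcd3, a small-subunit protein that binds RNA, read 7.38, 7.51 and 7.41 on pristine and 7.66, 7.78 and 8.08 on modified PEEK, without overlap (difference 0.41, limma adjusted p = 0.0847; 0.00594 with the intensity trend). Dap3, a GTP-binding small-subunit protein, differed by -0.13 (0.548), Chchd1 by -0.12 (0.627) and Gadd45gip1 by 0.076 (0.881). Without 1 array the difference ran from -0.23 to -0.061 for Dap3 and from -0.21 to -0.069 for Chchd1, nearest 0 without modified replicate 3 for both. The signs of Dap3 and Chchd1 turned when scaled to the spikes, and that of Gadd45gip1 turned without modified replicate 3.

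Of 18 measured mitochondrial translation factors, 2 were higher (11.1%, against 5.24% of all genes) and 0 lower (median difference 0.041). Qrsl1, a subunit of the enzyme that makes mitochondrial glutaminyl-tRNA, read 6.49, 6.68 and 6.54 on pristine and 7.28, 6.99 and 7.13 on modified PEEK, a rise of 0.56 ± 0.11 (SE; limma adjusted p = 0.0142). Guf1, a mitochondrial translation GTPase, read 7.11, 7.13 and 7.20 on pristine and 7.58, 7.51 and 7.72 on modified PEEK, a rise of 0.46 ± 0.10 (SE; limma adjusted p = 0.0203). Neither gene overlapped between surfaces, but Qrsl1 lost its call without pristine replicate 1 or 3 or modified replicate 3 (adjusted p up to 0.0639), and Guf1 without any pristine replicate or modified replicate 3 (up to 0.0805). Of 30 assembly genes, 1 was higher (3.33%) and 0 lower (median -0.034). It was Tfb1m, which methylates the small-subunit ribosomal RNA, with a rise of 0.43 ± 0.10 (SE; limma adjusted p = 0.0323) that was lost without any single array other than modified replicate 2 (up to 0.122). Of 19 genes of mitochondrial transcription and RNA handling, 0 passed by limma (1 at an unadjusted p under 0.05; 0 by an ordinary t statistic). Their median was 0.080, and -0.0030 without modified replicate 3.

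Cytosolic ribosomal protein genes encode the other ribosome of the cell, which translates nuclear messages. Of 63, 1 was higher (1.59%, against 5.24% of all genes) and 0 lower, and their median difference was -0.0027. The SD of the differences over genes was 0.085, beside 0.20 over the mitochondrial members and 0.33 over all genes. Their median signals were unlike, at 10.71, 7.63 and 5.04 in the same order, and the part of signal level in these spreads was not tested. The gene that passed was Rpl37a (0.36, limma adjusted p = 0.04995), and its call was lost without any 1 of the 6 arrays (up to 0.171).

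Of 8 measured regulators of mitochondrial biogenesis, 1 was higher and 1 lower (12.5% each, against 5.24% and 5.15% of all genes). Ppargc1b, a coactivator of nuclear genes for mitochondria, read 7.14, 7.34 and 7.03 on pristine and 7.82, 7.63 and 7.71 on modified PEEK, a rise of 0.55 ± 0.11 (SE; limma adjusted p = 0.0181). Its call was lost without replicate 1 or 3 of either surface (adjusted p up to 0.0810). Myc, a transcription factor that acts on ribosome genes, went from 6.44 ± 0.23 to 4.95 ± 0.14 (SD, n = 3 each), a difference of -1.49 (limma adjusted p = 0.000491). Nrf1 (0.33, limma adjusted p = 0.0614) and Gabpa (0.30, 0.0826), which encode factors whose motifs were counted in the promoters, did not pass. Neither did Gabpb1 (0.12, 0.651), for the partner of Gabpa in GABP, nor Yy1 (0.078, 0.752).

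**Figure D4:**
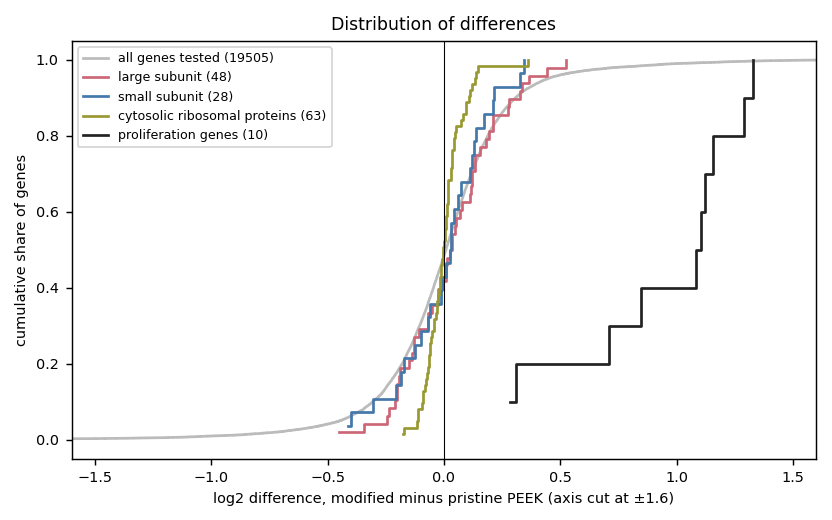
Cumulative share of genes by log2 difference (modified minus pristine PEEK) for all 19505 genes, the large subunit (48), the small subunit (28), cytosolic ribosomal proteins (63) and proliferation genes (10). Both mitochondrial subunits run close to the curve of all genes, the cytosolic curve is the steepest, and the proliferation genes lie wholly above 0.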

How the data were processed

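Biotin-labelled cDNA from 250 ng of RNA was, per the labels, hybridised to Affymetrix arrays. The deposited values were read as log2 signals from their range, and RMA is a tool that the submitters' processing notes list. Of 29129 features, 19572 probe sets named 1 gene in the platform annotation, and the one with the highest mean over the 6 arrays stood for each of 19505 genes. Coordinates are those of the RefSeq promoter table, since the array's build is unknown here. No protein sequences were used here.

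The comparison used limma 3.58.1 (R 4.3.3; lmFit and eBayes, two-sided, no covariate), with Benjamini-Hochberg adjustment over all genes and calls at an adjusted p under 0.05. The fit was tested on simulated data with independent noise for each gene and array. That setting does not cover deviations shared by the genes of an array, and no result here rests on it. The number of arrays limits the precision. Members and lists were chosen with earlier results of these data known. Named members were those that passed, the 4 largest rises and falls of each subunit, the Mrps18 paralogs, Mrpl10, Mrpl12, Mrpl44, Mrpl58 and Mrps36. From other lists, up to 4 genes that passed and all ribosomal proteins outside the symbol rule were named. Mrpl27, Mrpl42, Mrpl57, the partners Eme1 and Ska3, Tcp1, Nrf1, Gabpa, Gabpb1 and Yy1 were chosen after their values were seen. Alternatives covered normalization, dim-gene filters, probe sets per gene, variance model, array weights, a replicate block, an ordinary t statistic, subunits by structure, and each array left out.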

Additional observations from a re-analysis of the deposited data

How the results depend on the processing

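The medians of the family and of each subunit moved by less than the spread between replicates under all alternatives run except scaling to the poly-A spikes (0.276 for the family, 0.277 large, 0.276 small, against 0.256 for all genes). That scaling called 1575 genes higher and 290 lower instead of 1023 and 1004. The dim-gene filters, the mean of probe sets, both intensity trends, the replicate block and the ordinary t statistic cannot change the members' differences. Under these the medians were fixed in advance. Members called higher and lower, 2 and 1 as reported, were 3 and 4 (large 3 and 2, small 0 and 2) with quantile normalization again, 1 and 0 (large 1 and 0, small 0 and 0) centred on array medians, 7 and 0 (large 6 and 0, small 1 and 0) scaled to the spikes, 4 and 4 (large 4 and 2, small 0 and 2) without the lowest 25% of genes, 7 and 4 (large 6 and 2, small 1 and 2) without the lowest 50%, 5 and 4 (large 5 and 2, small 0 and 2) without genes below background, 9 and 6 (large 7 and 3, small 2 and 3) with the intensity trend, 9 and 6 (large 7 and 3, small 2 and 3) with its robust form, 1 and 4 (large 1 and 2, small 0 and 2) with array weights and 2 and 2 (large 1 and 1, small 1 and 1) with an ordinary t statistic. In the same order, 9.21%, 1.32%, 9.21%, 10.5%, 14.5%, 11.8%, 19.7%, 19.7%, 6.58% and 5.26% of members and 11.9%, 8.84%, 9.56%, 16.7%, 30.6%, 20.1%, 16.9%, 16.8%, 12.7% and 7.94% of genes tested were called. All genes called were 3305 with the trend and 3282 with its robust form. Subunits by structure gave a large minus small difference of 0.00028. The filters test fewer genes; the cause of the other changes was not tested. With the replicate number as a block, 1268 genes were called, and 1 and 0 (large 1 and 0, small 0 and 0) members. The labels do not say whether the numbers pair the arrays. Deviations of same-numbered arrays correlated at -0.17, -0.16 and 0.068 over genes, which cannot settle it. Leaving out each array gave 1142 to 1863 genes called, 0 to 1 members higher and 0 to 2 lower (the same for the large subunit, 0 to 0 for the small). The medians ran from -0.013 to 0.062 for the family, -0.015 to 0.062 for the large and -0.00042 to 0.053 for the small subunit, and large minus small from 0.020 to 0.039. Scaled to the spikes, signs turned for Mrpl21 (0.000700), Mrpl44 (0.0585), Mrpl55 (0.0113), Mrps18c (0.0428), Mrps36 (0.0632), Chchd1 (0.129) and Dap3 (0.113). Mrpl58 turned with array weights (-0.00995) and with single arrays left out (-0.0224 to 0.0275), and Gadd45gip1 with single arrays left out (-0.176 to 0.252).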
